A study of Mus musculus with 74 samples.

Results

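The comparison described here asked what the small intestinal epithelium of the mouse expressed at the E18 stage when the gene of the intestinal transcription factor CDX2 had been targeted for deletion at E15. It rested on 4 RNA-seq libraries of the 31 in the series, chosen by their labels: 2 of Cdx2-/- intestine deleted at E15 and 2 of WT E18 small intestine. The knockout embryos carried Cdx2f/f; Villin-Cre on a B6;129 mixed background and received 5 mg of tamoxifen by oral gavage. Villin-Cre drives the recombinase from the promoter of villin, a gene of intestinal epithelial cells. The WT embryos were of the CD1 strain, untreated, with no floxed allele and no Cre. Strain, tamoxifen, Cre and loss of Cdx2 therefore separated the groups together and cannot be told apart. Both groups were labelled E18, and both were villi freed with 5 mM EDTA for 45 min and dissociated with an enzyme. As reference groups, 2 libraries of untreated CD1 WT small intestine labelled E14 (from the midgut) and 2 labelled E16 were used, both sorted on Epcam. Knockouts labelled E16 and sorted the same way were Cdx2f/f; Shh-Cre intestine deleted at E10 (untreated, 3 libraries) and intestine deleted at E13 (Cdx2f/f; Villin-Cre, 5 mg of tamoxifen, 2 libraries), both on the B6;129 mixed background. Adult ileum villi came from Cdx2f/f mice given oil (2 libraries) and from Cdx2f/f; Villin-Cre mice given 1 mg of tamoxifen on each of 5 days (2 libraries), also B6;129 mixed.

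CDX2 is a homeobox transcription factor of the intestine. Early in development it sets intestinal against gastric identity, and in the differentiated villus it binds near many genes of the absorptive cell together with factors such as HNF4A and GATA4. The absorptive cell, the enterocyte, carries a brush border of microvilli packed with hydrolases and transporters. Goblet, Paneth, enteroendocrine and tuft cells are the secretory types, and stem and dividing cells lie between or below the villi. In mice the fetal and suckling enterocyte relies on lactase and on uptake of whole milk proteins, and changes its enzymes at weaning.

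The 4 libraries held 17476863 to 32576483 counts assigned to genes, against 5970227 to 62463167 over the 31 RNA libraries. Expression is given below as CPM, counts scaled to a common library size, over the 27 embryonic libraries, always with replicate 1 before replicate 2. Adult libraries were scaled apart, so adult and embryonic CPM are not on exactly the same scale. Replicates lay very close together: the chi-square of a replicate pair over genes, divided by its degrees of freedom, was 1.5 for the WT pair and 4.8 for the knockout pair, where pure counting error gives about 1. It was 2.4 for the knockout deleted at E13 and 9.19 to 123 for all other pairs. The labels do not say whether replicates were separate embryos, so p-values measure only the spread between libraries, which may be technical and which the test pooled over the 27 embryonic libraries. For that reason the main counts are also given with each pair summed to 1 library, an alternative chosen after the data were seen. With pairs summed, or with a library left out, an arm of 1 library has no spread of its own and is assumed to vary like the other groups.

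The libraries labelled E18 stood apart from the earlier embryonic libraries in stage markers. H19, an imprinted RNA of fetal tissue, was at 0.0549 to 0.164 CPM in WT and 0.93 to 0.994 in the knockout, against 923 to 1041 in WT labelled E16. Igf2, the imprinted fetal growth factor beside it, was at 1.87 to 2.30 CPM in WT and 3.98 to 4.13 in the knockout, against 851 to 901 at E16. Pigr, the receptor that carries immunoglobulin A across the epithelium and a gene of mature gut, was at 7612 to 7655 CPM in the knockout and 13250 to 13310 in WT, against 19.7 to 25.3 at E16. Sis, the sucrase of weaned gut, was at 9169 and 9281 CPM in the WT libraries labelled E18, 6.82 to 7.14 at E16 and 4591 to 5686 in adult WT ileum. In the libraries labelled E18, RNAs that mark fetal gut were thus low and RNAs that mark mature gut high. Ranks of 17305 genes correlated between WT labelled E18 and adult WT with a Spearman rho of 0.943 to 0.953, and with WT labelled E16 with a rho of 0.825 to 0.827. These are correlations across genes, which share the library and are not independent. Markers of position along the gut differed from the adult ileum. Fabp6, the ileal bile acid binding protein, was at 0.0822 to 0.329 CPM in WT and 0.153 to 0.31 in the knockout against 2658 to 2806 in adult WT. Gata4, a factor of the proximal intestine, was at 260 to 319 CPM against 76.1 to 86.3. In WT labelled E14 and E16, Fabp6 was at most 0.819 CPM and Gata4 was at 215 to 277. These 2 genes therefore cannot tell position from stage here. The stage written on the labels was kept as a name only. The knockout deleted at E13, labelled E16, also had little H19, at 0.661 to 0.803 CPM.

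**Figure D1:**
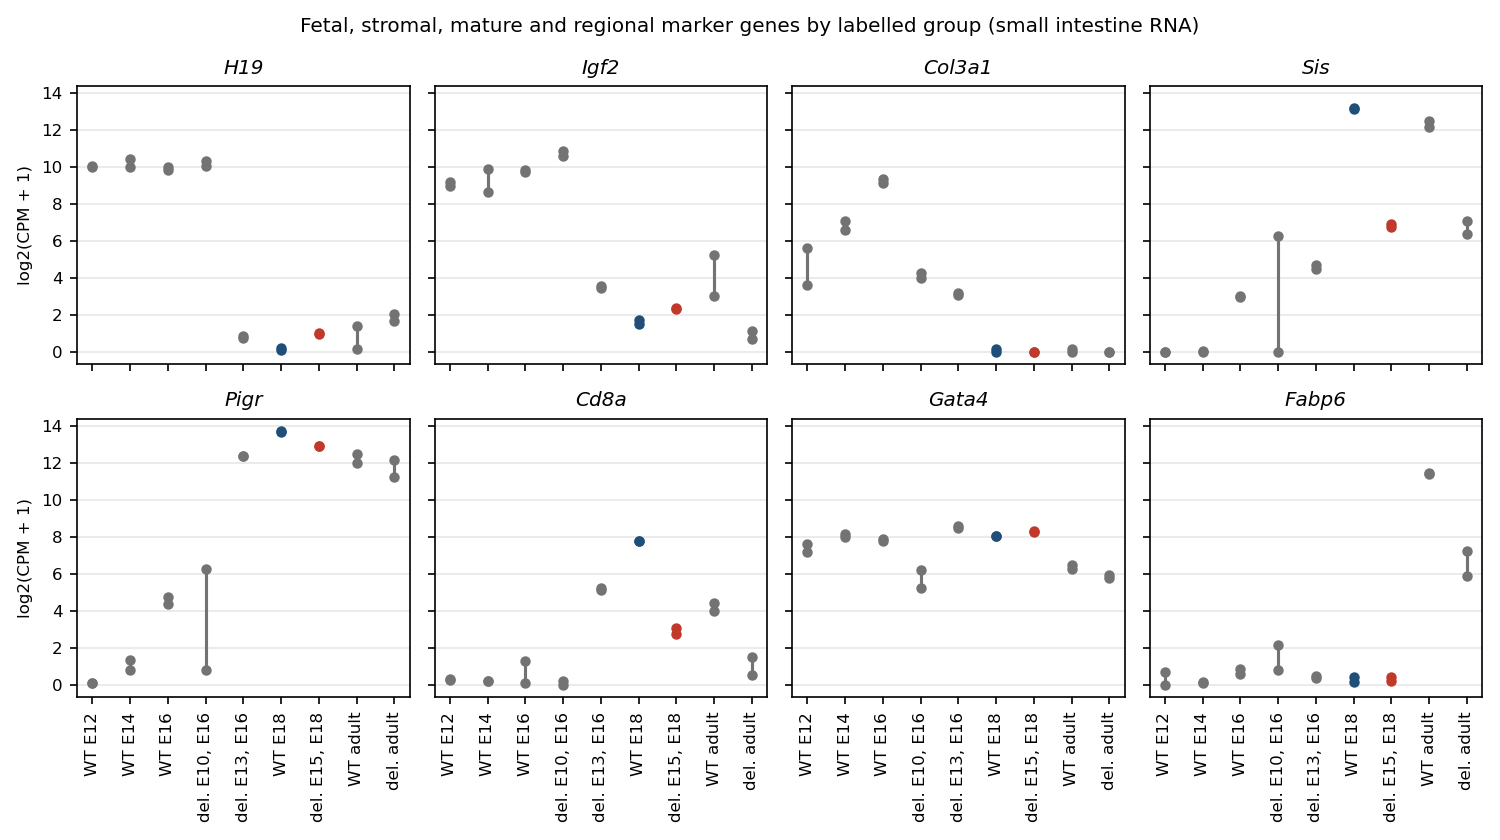
CPM of 8 marker genes, as log2(CPM + 1), in the small intestine groups named on the horizontal axis; points are the lowest and highest library of a group and the line joins them, with WT E18 in blue and the E15 deletion in red. H19 and Igf2 were low, and Pigr high, in the libraries labelled E18, in the adult and in the knockout deleted at E13.

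Cdx2 itself did not fall. It was at 199.9 and 206 CPM in the WT libraries and at 388 and 371 in the knockout libraries, from 2432, 3760, 7508 and 9708 counts. The knockout libraries were above both WT libraries, with a log2 difference of 0.90 ± 0.28 (standard error, SE) and an adjusted p of 0.021 in edgeR's quasi-likelihood test with Benjamini-Hochberg adjustment. This goes against the label read as a loss of Cdx2 RNA. The adult knockout was also above its control, at 462 to 472 against 242 to 248 CPM, with a log2 difference of 0.93. In the knockout deleted at E10, which carried the same Cdx2f/f genotype with another Cre, Cdx2 did fall, to 14.5 to 27.5 CPM against 196 to 218 in WT labelled E16 (−3.40, adjusted p = 3e-09). In the knockout deleted at E13 it was at 212.6 to 217.5 CPM (0.05, adjusted p = 0.9). The E15 effect on Cdx2 differed from the E10 effect by 4.30 in log2 (adjusted p = 5.5e-08). Counts over the whole gene do not show which exons the RNA held, so a deletion within the gene was not tested for these 4 libraries. In what follows, "the knockout" means the libraries labelled as deleted at E15. Cdx1, the close relative of Cdx2, was at 91.3 and 92.4 CPM in WT and 233 and 224 in the knockout, a log2 difference of 1.31 ± 0.52 with an adjusted p of 0.065.

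Of 17239 genes tested, 3015 were called different (17.5%) at an adjusted p below 0.05 and a log2 difference of at least 1. In the knockout 1343 genes rose (7.79%) and 1672 fell (9.7%). With each pair summed, 946 rose and 816 fell. Without knockout replicate 1 the number that fell was 1112, and without replicate 2 it was 1071. The groups did not overlap for 12990 genes (75.4%), so separation of the 4 libraries alone is no sign of a change. The median log2 difference over all genes was 0. The members of 19 gene lists are described next against these shares.

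**Figure D2:**
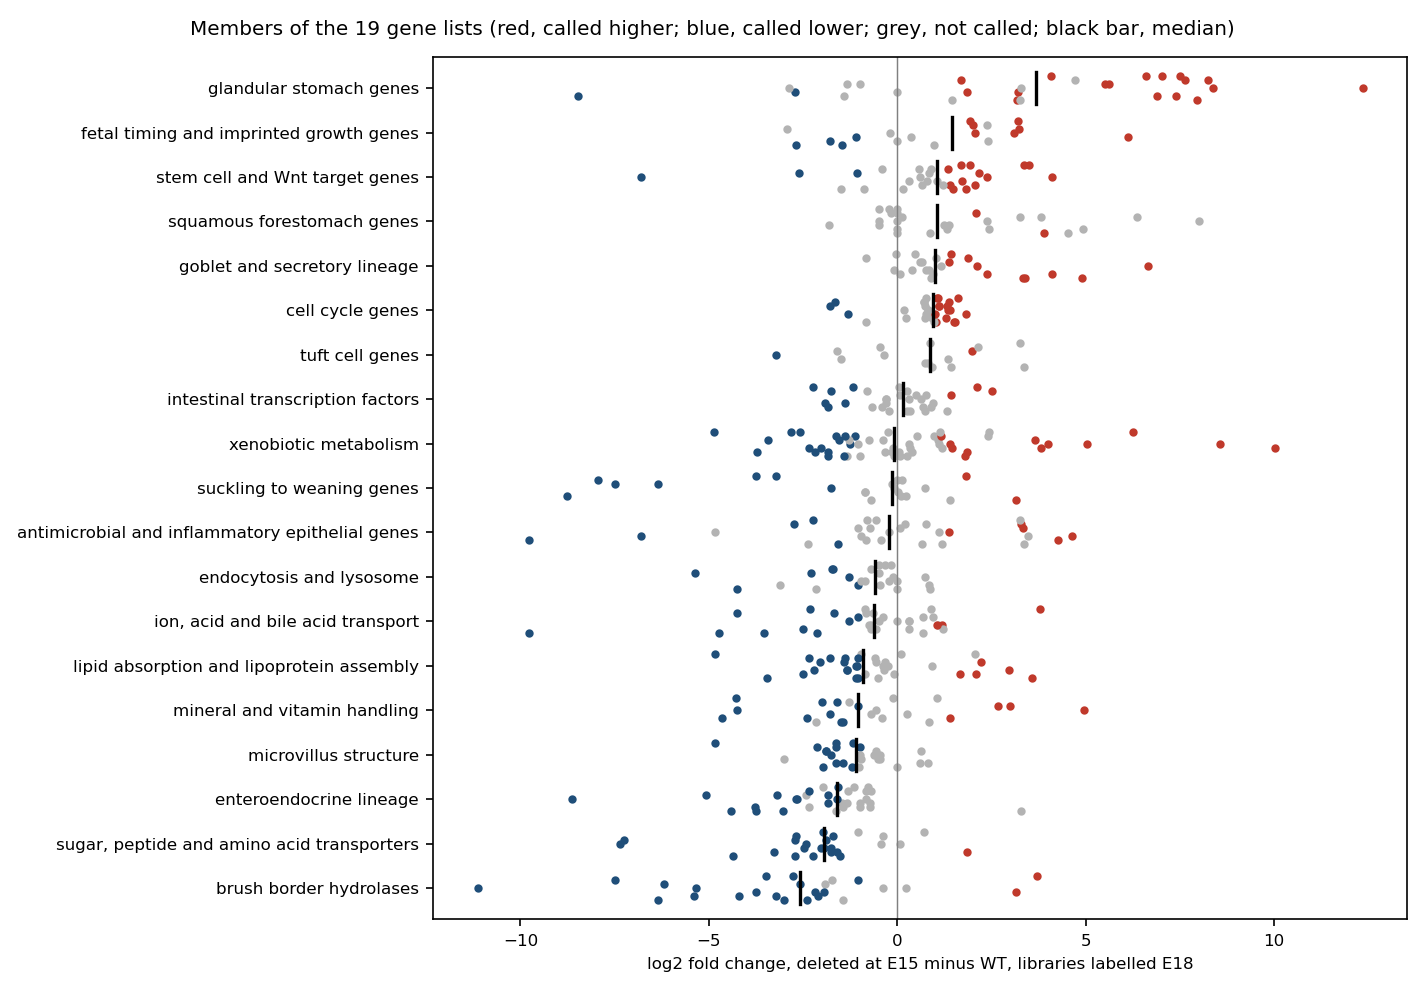
Log2 difference, knockout minus WT, of every tested member of the 19 gene lists; red points rose, blue points fell, grey points did not pass the test, and the black bar is the median. Hydrolases, transporters and endocrine genes lie left of 0, and stomach, stem cell and goblet genes right of it, by their medians.

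The enzymes of the brush border fell in number and by large folds. Of 25 hydrolases tested, 18 fell and 2 rose, against 9.7% and 7.79% of all genes, and their median log2 difference was −2.59. Lactase, Lct, which splits milk sugar, was at 4919 and 4921 CPM in WT and 25.7 and 28.8 in the knockout (log2 difference −7.49 ± 0.39, adjusted p = 2.1e-10). Sucrase-isomaltase, Sis, went from 9169 and 9281 CPM to 105 and 121 (−6.35 ± 1.21, adjusted p = 0.0013). With each pair summed the adjusted p of Sis was 0.0506, and DESeq2 called neither Sis nor Enpp7, with adjusted p of 0.145 and 0.245. Each of these genes kept a wide gap between its groups in all 4 libraries. The alkaline sphingomyelinase Enpp7 was almost absent from the knockout, with 4937 and 7258 counts in WT and 1 and 7 in the knockout (406 and 398 against 0.0517 and 0.268 CPM, −11.13 ± 0.59, adjusted p = 4.4e-07). Enteropeptidase, Tmprss15, which activates trypsin, was at 148 and 147 CPM in WT and 3.62 and 3.33 in the knockout. The peptidases Naaladl1 and Xpnpep2 fell, with log2 differences of −6.18 and −5.33. Maltase-glucoamylase, Mgam, fell from 6959 and 6869 to 744 and 746 CPM, and trehalase, Treh, from 1421 and 1406 to 105 and 104 CPM. Smaller falls were seen for the aminopeptidase Anpep, from 12720 and 13120 to 6400 and 6146 CPM, and the dipeptidase Ace, from 6029 and 6204 to 1199 and 1129 CPM. The call of Anpep was lost when any 1 library was left out, with adjusted p from 0.0581 to 0.101.

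Not all hydrolases followed. The intestinal alkaline phosphatase Alpi was at 4104 and 4254 CPM in WT and 4959 and 4764 in the knockout, with a log2 difference of 0.22 and an adjusted p of 0.83. Its duodenal relative Akp3 rose from 293 and 299 to 2714 and 2537 CPM (3.15 ± 0.41, adjusted p = 9.6e-05), a call that DESeq2 did not make. Alpi and Akp3 are near copies, and how reads were split between them is not given. The lipase Pnliprp2, an enzyme of pancreas and suckling gut, rose from 7.4 and 8.18 to 105 and 99.97 CPM. The metalloprotease subunit Mep1b had a log2 difference of −1.45 with an adjusted p of 0.069.

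Promoter sequence was examined for the hydrolases that fell, since CDX2 and HNF4A have known sites in several of them. Of the 18, 16 had a RefSeq promoter window in the mouse build GRCm38.p6, from 250 bases before to 50 after the start. Naaladl1 had none. The windows of Sis, Lct, Mgam and Treh are shown because these are the disaccharidases described above, 5′ to 3′ on the gene's own strand. They lie at chr3:72967814-72968113 (Sis, minus strand), chr1:128328269-128328568 (Lct, minus), chr6:40628581-40628880 (Mgam, plus) and chr9:44672983-44673282 (Treh, plus). Capitals mark CDX words (the word CAATAAA, the word CCATAAA, the word TAATAAA or the word TCATAAA, either strand) in Sis, Lct and Mgam, TATAAA on either strand in Mgam, and the HNF4 word AAAGTCC, either strand, in Treh.
Sis: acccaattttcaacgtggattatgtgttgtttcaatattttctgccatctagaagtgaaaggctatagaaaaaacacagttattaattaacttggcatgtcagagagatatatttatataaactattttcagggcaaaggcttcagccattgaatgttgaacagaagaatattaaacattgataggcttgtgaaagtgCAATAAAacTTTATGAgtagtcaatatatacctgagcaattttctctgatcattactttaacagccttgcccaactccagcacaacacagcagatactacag
Lct: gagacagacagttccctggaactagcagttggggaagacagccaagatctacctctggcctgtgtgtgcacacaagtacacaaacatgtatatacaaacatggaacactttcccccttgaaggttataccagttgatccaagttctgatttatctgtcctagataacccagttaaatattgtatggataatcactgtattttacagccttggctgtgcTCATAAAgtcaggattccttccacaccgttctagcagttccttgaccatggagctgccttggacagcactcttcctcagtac
Mgam: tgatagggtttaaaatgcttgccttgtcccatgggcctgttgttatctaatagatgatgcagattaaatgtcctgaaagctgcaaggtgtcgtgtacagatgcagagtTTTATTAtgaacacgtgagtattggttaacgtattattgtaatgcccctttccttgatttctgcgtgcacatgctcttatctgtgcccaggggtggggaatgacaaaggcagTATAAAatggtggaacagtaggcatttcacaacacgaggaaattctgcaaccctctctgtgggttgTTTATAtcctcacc
Treh: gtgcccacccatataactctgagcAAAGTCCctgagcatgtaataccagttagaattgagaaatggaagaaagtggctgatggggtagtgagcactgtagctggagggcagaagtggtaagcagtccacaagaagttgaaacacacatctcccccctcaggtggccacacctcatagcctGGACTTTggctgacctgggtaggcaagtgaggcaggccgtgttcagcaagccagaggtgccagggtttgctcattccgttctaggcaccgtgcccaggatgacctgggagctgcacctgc

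In Sis the CDX words began 52 and 43 bases before the start, in Lct 32 bases before and in Mgam 142 bases before. In Treh the HNF4 words began 226 and 70 bases before the start. A CDX word stood in 5 of the 16 genes with a window, an HNF4 word in 5 and TATAAA in 7. Counted the same way, by gene with a word in any of its windows, the shares over all 27025 genes of the table were 16.4%, 4.84% and 15.7%. Among the 6 hydrolases with a window that did not fall, 2 held a CDX word, 1 an HNF4 word and 2 TATAAA. Over all genes tested with a window, 10.2% held a CDX word, against 11.9% of those that fell and 8.72% of those that rose. The shares were 5.14%, 7.76% and 5.85% for the HNF4 word and 10.3%, 13.6% and 10.1% for TATAAA. Of 11 lipid genes that fell and had a window, 1 held a CDX word, against 5 of 14 that did not fall. The CDX words and TATAAA share letters and can overlap. A match describes the sequence only.

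**Figure D3:**
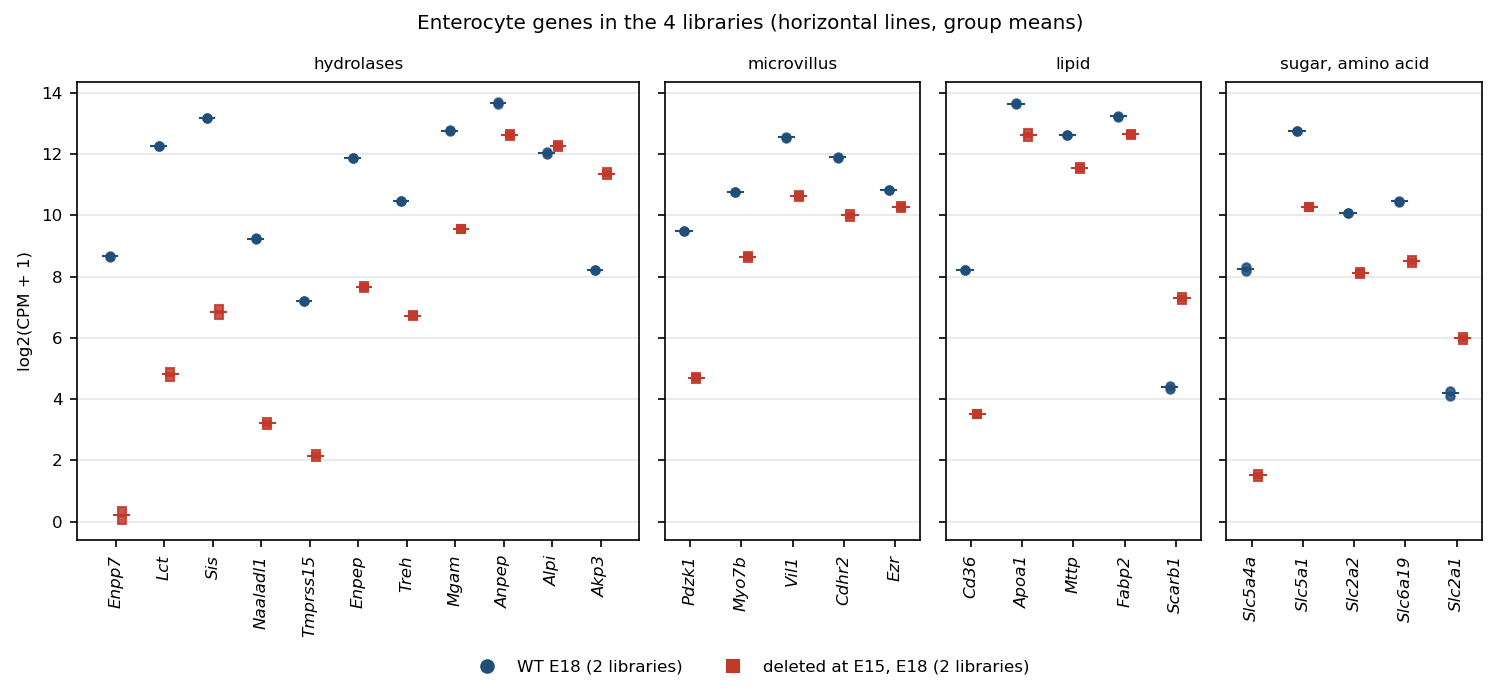
CPM of enterocyte genes, as log2(CPM + 1), in each of the 2 WT (blue circles) and 2 knockout (red squares) libraries; short lines are group means. Enpp7, Lct, Sis and Slc5a4a were lower in both knockout libraries, and Akp3 and Scarb1 higher.

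Of 26 genes that build the microvillus, 13 fell, 13 were not called and 0 rose, with a median log2 difference of −1.10. The scaffold Pdzk1, which holds transporters at the apical membrane, went from 709.7 and 710.45 CPM to 24.2 and 25.7 (−4.83 ± 0.32, adjusted p = 2.6e-09). Villin, Vil1, which bundles the actin core and whose promoter drives the Cre used here, went from 5965 and 5922 to 1633 and 1559 CPM (−1.90 ± 0.25, adjusted p = 1.2e-05). The bundling proteins Pls1 and Espn (log2 differences of −1.97 and −1.76), the motor Myo7b (−2.12) and the protocadherin Cdhr2, which links microvillus tips (−1.90), fell too. Ezrin, Ezr, which ties actin to the membrane, was at 1791 and 1807 CPM in WT and 1245 and 1202 in the knockout, below the fold threshold (−0.56). The motors Myo6 and Myo1d had log2 differences of 0.64 and 0.60 and were not called.

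Transporters of sugars, peptides and amino acids fell as a group in number. Of 25, 19 fell and 1 rose, with a median of −1.95. With each pair summed, 9 fell. The sodium glucose transporter Slc5a1 went from 6861 and 6847 CPM to 1220 and 1242 (−2.48 ± 0.66, adjusted p = 0.007). With each pair summed its adjusted p was 0.129, and with 1 library left out it ranged from 0.0271 to 0.0648. Its relatives Slc5a4a and Slc5a4b went from 316 and 291 to 1.96 and 1.76 CPM and from 459 and 431 to 3.31 and 2.56 CPM. These near-identical neighbours may share reads, and DESeq2 did not call Slc5a4a (adjusted p = 0.104). The sulfate transporter Slc13a1 (log2 difference −4.36), the citrate transporter Slc13a2 (−3.26), the proline transporter Slc6a20a (−2.73) and the hexose transporter Slc2a7 (−2.72) fell too. Slc13a1 lost its call with each pair summed (adjusted p = 0.0579) and under DESeq2 (adjusted p = 0.13), and Slc6a20a with each pair summed (adjusted p = 0.0854). Not called were the cystine transporter pair Slc7a9 (−0.42) and Slc3a1 (−1.03) and the lactate transporter Slc16a1 (0.08), though Slc3a1 was called lower under RLE scaling, with DESeq2 and in a fit of only the 4 libraries. The member that rose was Slc2a1, the glucose transporter of dividing cells, from 18.4 and 16.2 to 64.6 and 59.7 CPM.

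Lipid handling was mixed. Of 34 genes of lipid absorption and lipoprotein assembly, 16 fell and 5 rose, with a median of −0.91. The fatty acid receptor Cd36 went from 294 and 298 CPM to 10.3 and 10.4 (−4.84 ± 0.65, adjusted p = 1.4e-05). The sterol exporters Abca1 and Abcg5 (log2 differences of −3.47 and −2.51) and Apoc3, an apolipoprotein of triglyceride-rich particles (−2.35), fell. Abcg5 lost its call without either knockout library, with adjusted p of 0.0561 and 0.0588, and under DESeq2. The apolipoprotein Apoa1 went from 12526 and 13008 to 6526 and 5946 CPM, and Mttp, which loads lipid onto apolipoprotein B, from 6255 and 6262 to 2881 and 3012 CPM. Both lay near the fold threshold, and without knockout replicate 2 Apoa1 had a log2 difference of −0.98 and was not called. The fatty acid binding proteins Fabp1 and Fabp2 and the apolipoprotein Apoa4 had log2 differences of −0.57, −0.59 and −0.85 and were not called. Scarb1, the lipoprotein receptor of proximal gut, rose from 20.5 and 19.2 to 161 and 149 CPM (2.96 ± 0.13, adjusted p = 1.7e-11).

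Among 23 genes of mineral and vitamin handling, 10 fell and 4 rose, with a median of −1.04. S100g, the calcium binding protein calbindin-D9k, rose from 37.6 and 40.4 to 1178 and 1242 CPM (4.96 ± 0.40, adjusted p = 3.4e-08). The iron exporter ferroportin, Slc40a1, rose from 33.9 and 36.7 to 219 and 229 CPM (2.67 ± 0.15, adjusted p = 2.1e-10), and the ferric reductase Cybrd1 from 0.493 and 1.26 to 7.96 and 7.07 CPM. These genes of calcium and iron uptake are known for their expression in the duodenum. In the other direction, cubilin, Cubn, the receptor for vitamin B12 with its carrier, went from 888 CPM in both WT libraries to 44.8 and 47.8. The ascorbate transporter Slc23a1 fell, with a log2 difference of −4.28, and the retinol binding protein Rbp2 from 6899 and 6521 to 1996 and 1890 CPM. The phosphate transporter Slc34a2 was at 6.25 and 5.98 CPM in WT and 0.207 and 0.268 in the knockout, and lost its call when a library was left out, with adjusted p from 0.0899 to 0.185. The zinc importers Slc39a4 and Slc39a5 had log2 differences of −0.71 and −0.58 and were not called.

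Ion, acid and bile acid transport gave 10 that fell and 3 that rose of 32 tested, with a median of −0.61. Carbonic anhydrases moved apart. Membrane-bound Car4 went from 359 and 372 CPM to 0.207 and 0.573 (−9.78 ± 0.92, adjusted p = 3.3e-07), whereas cytosolic Car2 rose from 131 and 129.7 to 1794 and 1828 CPM (3.80 ± 0.43, adjusted p = 1.9e-06). The xenobiotic pump Abcb1a (log2 difference −4.74), the hormone uroguanylin, Guca2b (−4.24), and the basolateral bile acid transporter subunits Slc51a and Slc51b (−3.54 and −2.51) fell. Slc51b lost its call with each pair summed (adjusted p = 0.134), and 2 genes rose with any 1 library left out or with each pair summed. The sodium pump subunit Atp1b1 (−0.68) and the exchanger Slc26a6 (−0.84) did not reach the threshold.

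Genes of endocytosis and of the lysosome, prominent in the neonatal enterocyte, gave 7 that fell of 24 and 0 that rose, with a median of −0.60. The lysosomal hydrolase gene Hexa fell, with a log2 difference of −2.30. Cathepsin L, Ctsl, went from 96.8 and 89 to 29.7 and 27.4 CPM (−1.70 ± 0.12, adjusted p = 6.9e-09). The lysosomal channels Mcoln1 and Mcoln3 were also lower, Mcoln3 at 1.23 and 0.988 CPM in WT and 0 and 0.0382 in the knockout. The adjusted p of Mcoln1 was 0.0538 with each pair summed. Lamp1, Ctsb and clathrin heavy chain, Cltc, general parts of the same system, had log2 differences of −0.33, −0.12 and −0.22 and were not called.

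Xenobiotic metabolism split both ways. Of 53 genes, 16 fell and 12 rose, with a median of −0.08. With each pair summed, 4 fell and 10 rose, and 9 fell without either knockout library. Cytochromes of the Cyp2d family rose: Cyp2d34 went from 0.164 and 0.0549 to 114 and 108 CPM, Cyp2d9 from 0 and 0.22 to 51.6 and 49 CPM, and Cyp2d10 from 0.657 and 0.604 to 49.3 and 48.1 CPM. These genes are near copies of each other, so the split of reads among them is uncertain, and DESeq2 did not call Cyp2d9 or Cyp2d10. The reductase Akr1b8, the sulfotransferase Sult1a1 and the glutathione transferase Gsta4 rose too, Gsta4 from 148 and 157 to 1904 and 1956 CPM (3.67 ± 0.15, adjusted p = 5.5e-12). Cyp2u1, a fatty acid hydroxylase, was at 10.9 and 11.1 CPM in WT and 0.413 and 0.344 in the knockout, and lost its call with each pair summed (adjusted p = 0.0797). Cyp3a13 (−0.33), Cyp4f14 (−1.29) and Ugt2b34 (0.38) did not pass the test.

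Most transcription factors of the intestine did not pass the test. Of 30, 6 fell and 3 rose, against 9.7% and 7.79% of all genes, with a median of 0.16. Hnf4a was at 729 and 732 CPM in WT and 886 and 868 in the knockout (0.26 ± 0.34, adjusted p = 0.64), and Klf4 and Elf3 had log2 differences of −0.31 and 0.63. The vitamin D receptor, Vdr, went from 689 and 698 to 192 and 196 CPM (−1.83 ± 0.41, adjusted p = 0.0019), and Isx, which restrains vitamin A uptake, from 169 and 163 to 43.8 and 44.1 CPM. Isx lost its call with any 1 library left out, with adjusted p from 0.0832 to 0.14, and the adjusted p of Vdr was 0.0755 with each pair summed. Prdm1, a repressor that holds the fetal program until weaning, fell, with a log2 difference of −1.76. The forkhead factors Foxa2 and Foxa3 rose by 2.52 and 2.12 on the log2 scale, Foxa3 from 6.66 and 7.63 to 33.5 and 29.1 CPM. Without knockout replicate 1, 2 of the factors fell, without knockout replicate 2 or WT replicate 2, 3 fell, without WT replicate 1, 4 fell, and with each pair summed 1 fell.

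Stem cell and Wnt target genes rose more often than they fell, and many were not called. The libraries were made from villi freed with EDTA. A different share of stem, dividing and Paneth cells and a change of RNA per cell cannot be told apart here. Of 29 stem cell and Wnt target genes, 13 rose, 3 fell and 13 were not called, with a median of 1.06. Without WT replicate 1 or knockout replicate 2, 1 fell, without either of the others 2 fell, and 1 fell with each pair summed. The progenitor factor Sox9 went from 11.8 and 13.1 to 64.8 and 65.8 CPM (2.38 ± 0.18, adjusted p = 9.4e-09). The receptor Tnfrsf19 rose by 3.35, the Wnt inhibitor Nkd1 by 4.11 and the clusterin gene Clu, a marker of regenerating gut, by 3.50 on the log2 scale. Lgr5, the stem cell receptor, went from 5.75 and 6.81 to 14.7 and 17.5 CPM (1.36 ± 0.33, adjusted p = 0.004). Olfm4, also of stem cells, was at 408 and 420.2 in WT and 761 and 780.1 CPM in the knockout (0.90 ± 0.30, adjusted p = 0.03), under the fold threshold. Against this direction, the Wnt targets Notum and Lef1 fell, Notum from 6 and 5.49 to 0.879 and 0.994 CPM. Lef1 had no count in the knockout and was at least 4.17-fold lower, taking 3 counts per library as the floor. Notum lost its call when any 1 library was left out.

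Of 33 cell cycle genes, 15 rose, 3 fell and 15 were not called, with a median of 0.96. Mki67, a protein of dividing cells, went from 194 and 191 to 527 and 583 CPM (1.53 ± 0.19, adjusted p = 7.3e-06). The kinases Cdk1 and Plk1 rose by 1.61 and 1.81 on the log2 scale. The members that fell were the cycle inhibitors Cdkn1a, Cdkn1c and Cdkn2b, with log2 differences of −1.30, −1.78 and −1.64. Cdkn2b lost its call with any 1 library left out, with adjusted p from 0.115 to 0.178. Pcna, Cdk4 and Ccnd2 had log2 differences of 0.24, 0.96 and 0.92. Under RLE scaling 9 rose. That scaling moved the median gene by −0.12 in log2.

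**Figure D4:**
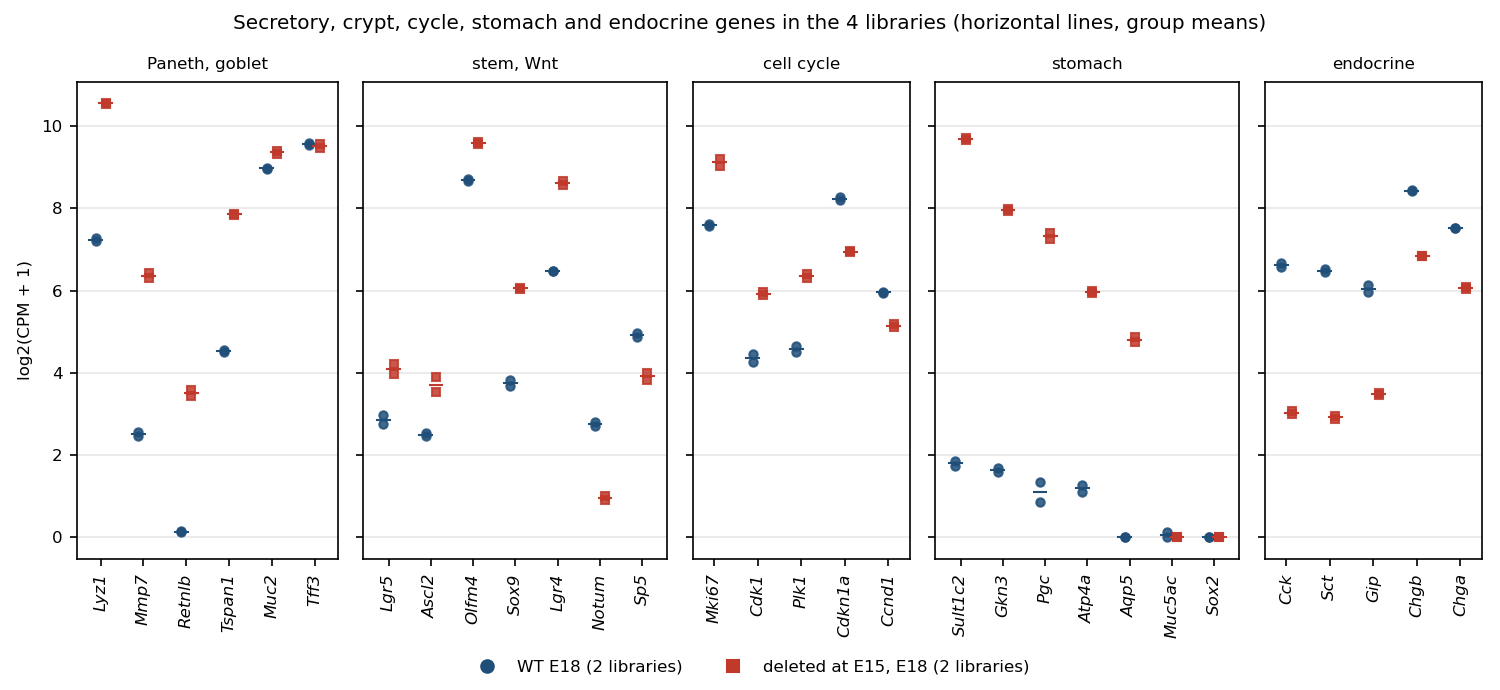
CPM of Paneth, goblet, stem, cell cycle, stomach and endocrine genes, as log2(CPM + 1), in each of the 2 WT (blue circles) and 2 knockout (red squares) libraries; short lines are group means. Lyz1, Sox9, Sult1c2 and Aqp5 were higher in both knockout libraries, Cck and Sct lower, and Sox2 was at 0 in all 4.

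The secretory types diverged. Of 24 goblet and other secretory genes, 10 rose and 0 fell, with a median of 0.99. Summing each pair left 6 that rose. Lysozyme, Lyz1, of Paneth cells, went from 154 and 146 to 1509 and 1499 CPM (3.33 ± 0.77, adjusted p = 0.0026, and 0.0705 with each pair summed). The Paneth protease Mmp7 and the goblet cell product Retnlb rose by 4.11 and 6.65, and Tspan1 and the stress sensor Ern2 of goblet cells by 3.39 and 2.38 on the log2 scale. Mmp7 lost its call without either WT library, with leave-one-out adjusted p from 0.032 to 0.0689. The mucus genes of goblet cells moved less: Fcgbp, Clca3 and Zg16 had log2 differences of 0.77, 0.66 and −0.08, and the main mucin Muc2 was at 496 and 507 CPM in WT and 676 and 643 in the knockout (0.40, adjusted p = 0.68).

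Enteroendocrine genes went the other way. Of 32, 14 fell and 0 rose, with a median of −1.61. Without any 1 of the 4 libraries 8 to 9 fell, and 8 with each pair summed, while 23 fell in a fit of only the 4 libraries. Cholecystokinin, Cck, went from 94.4 and 101 to 7.44 and 6.92 CPM (−3.76 ± 0.68, adjusted p = 0.00027), and secretin, Sct, from 86.3 and 90.9 to 6.77 and 6.38 CPM (−3.75 ± 0.89, adjusted p = 0.0031, and 0.0756 with each pair summed). Neurotensin, Nts, a hormone of the distal gut, was at 12.1 and 9.22 CPM in WT and 0 and 0.0382 in the knockout. The granule proteins Scg2 and Pcsk1n fell, with log2 differences of −3.19 and −4.41. Chga, another granule protein, and the hormones Gcg and Ghrl had log2 differences of −1.47, −0.98 and −0.99 and were not called, though all 3 were called lower in the fit of only the 4 libraries and Chga also under RLE scaling. Of 15 tuft cell genes, Dclk1 rose, a call lost with each library left out, and Ltc4s fell, a call lost with each pair summed (adjusted p = 0.0827), and 13 were not called.

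Genes of the glandular stomach had a median log2 difference of 3.67. Of 28 tested, 17 rose and 2 fell, and 1 fell without WT replicate 2 or knockout replicate 1. Sult1c2, a sulfotransferase of stomach, went from 2.63 and 2.31 to 805 and 841 CPM (8.39 ± 0.37, adjusted p = 1.5e-09). The water channel Aqp5 had no count in WT and 544 and 678 counts in the knockout (28.1 and 25.9 CPM), at least 131-fold higher against the floor of 3 counts per library. DESeq2 did not call Aqp5, with an adjusted p of 0.198. The junction protein Vsig1 rose from 0 and 0.165 to 30.3 and 32.2 CPM, and gastrokine 2, Gkn2, from 0 and 0.0549 to 9.72 and 9.1 CPM. Intrinsic factor, Gif, reached 1.24 and 0.841 CPM from 0, at least 5.06-fold higher. Not every stomach gene moved. Sox2, the stomach transcription factor, had no count in any of the 4 libraries, and Muc5ac, the surface mucin, was at 0.0822 and 0 CPM in WT and 0 in the knockout. Chymosin, Cym, the milk-clotting protease, went from 17.8 and 17.2 to 0.103 and 0 CPM. Of the squamous genes of the forestomach, Pitx1 and Serpinb5 rose and 24 of 26 were not called, while 4 rose without knockout replicate 1. The basal keratin Krt5 and Trp63, the defining factor of squamous epithelium, were at 0 in both WT libraries and in knockout replicate 1.

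Genes of fetal timing were at low levels in both groups, with a summed level of 134 and 141 CPM in WT and 138 and 143 in the knockout, against 4036 to 4378 in WT labelled E16. Of 18, 7 rose and 4 fell, and 4 rose without WT replicate 2. With any 1 library left out, 2 fell. H19 went from 0.164 and 0.0549 to 0.93 and 0.994 CPM and Meg3 from 0.0822 and 0.22 to 1.6 and 1.53 CPM. Afp, the fetal serum protein, fell from 35.7 and 35.3 to 5.84 and 5.12 CPM. Of 21 genes that change between suckling and weaning, 7 fell and 2 rose. Beside the disaccharidases they included the monocarboxylate transporter Slc5a8, from 11.6 and 12.8 to 0.0517 and 0.0382 CPM, and Nox4, which had no count in the knockout and was at least 16.6-fold lower. Slc5a8 lost its call without either knockout library, with adjusted p of 0.052 and 0.065. Cps1, of citrulline synthesis in the suckling gut, was at 1305 and 1264 CPM in WT and 3341 and 3428 in the knockout, with an adjusted p of 0.14.

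Antimicrobial and inflammatory genes of the epithelium gave 5 that rose and 5 that fell of 29, with a median of −0.23. Duoxa2 and Duox2, which make hydrogen peroxide at the apical surface, rose from 0.329 and 0.714 to 14.1 and 13.2 CPM and from 1.89 and 1.98 to 37.6 and 36.4 CPM. The lectin Reg3a went from 715 and 709.7 to 5.94 and 6.84 CPM (−6.80 ± 0.77, adjusted p = 3.1e-05), a call DESeq2 did not make. Reg3b was at 4739 and 4752 CPM in WT and 4021 and 4062 in the knockout (−0.23, adjusted p = 0.98). The chemokine Ccl24 had no count in the knockout and was at least 33.2-fold lower, and Ccl9 rose by 3.34 on the log2 scale. Summing each pair left 2 that rose and 3 that fell, and with only the 4 libraries fitted 9 rose and 7 fell. With either WT library left out, 2 genes rose, and Duox2 lost its call, with adjusted p of 0.0536 and 0.0538.

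Among markers of other cells and of handling, calls lay mainly in the immune, hepatocyte and dissociation lists. Most markers of the remaining cell types were not called. Epithelial markers summed to 20930 and 20690 CPM in WT and 18310 and 17250 in the knockout, and Epcam was at 1506 and 1479 against 1232 and 1242 CPM. The keratins Krt18 and Krt19 rose and Krt20, of the differentiated villus, fell. Immune cell markers summed to 524 CPM in both WT libraries and 15.2 and 17.6 in the knockout: 6 of 12 fell and 0 rose, with a median of −4.96, and 10 fell under DESeq2 and 9 in the fit of only the 4 libraries. The leukocyte phosphatase Ptprc went from 197 and 201 to 6.41 and 7.26 CPM and the T cell receptor chain Cd3e from 66.1 and 65.7 to 1.55 and 1.34 CPM. In bulk RNA, fewer cells of a type and less RNA per cell cannot be told apart. In adult WT ileum the same markers summed to 39.6 and 85.3 CPM. Mesenchymal markers summed to 378 and 375 CPM in WT and 304 and 294 in the knockout, with Vim the only called member (lower) and Col6a3, Lum and Postn at 0 in all 4. Endothelial markers summed to 4.19 and 5.38 against 4.81 and 5.31 CPM and neuronal ones to 10.2 and 9.66 against 8.48 and 8.72. Erythroid markers summed to at most 1.56 and pancreatic ones to at most 3.93. Among these, endothelial Esam was called higher, with log2 differences of 2.58 to 2.98 over all settings. Neuronal Elavl4 (−7.82 to −7.12) and Tubb3 (−4.75 to −2.70) were called lower. Esam was not called in a fit of only the small intestine libraries. Of 8 hepatocyte genes, 3 rose and 0 fell. Ttr rose from 2.88 and 3.07 to 594 and 537 CPM and Trf from 14.2 and 13.4 to 88.4 and 89 CPM, while albumin, Alb, was at 0.575 and 0.549 CPM in WT and 0.517 and 0.459 in the knockout. Serpina1a and Hp were under 1 CPM in all 4 libraries, with log2 differences of −2.64 and −2.05, and were not called, though Serpina1a was called lower under RLE scaling and DESeq2. Fga was also called higher, a call lost with any 1 library left out, with adjusted p from 0.0774 to 0.233. Genes induced by dissociation summed to 13870 and 14040 CPM in WT and 8627 and 8398 in the knockout, and 5 of 13 fell, 3 of 13 with each pair summed. The heat shock gene Hspa1a went from 389 and 401 to 2.95 and 3.36 CPM (−6.96 ± 0.72, adjusted p = 6.4e-07). In the other small intestine groups plotted above, adults included, Hspa1a lay between 0.357 and 11.85 CPM, so the WT libraries labelled E18 stood apart in this gene. The part of immune cells, of dissociation and of the share of stem, dividing and Paneth cells in the absorptive, secretory, stem cell and cell cycle results was not tested.

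Outside the lists, the largest changes involved single genes of varied role. Dmbt1, a scavenger receptor secreted by epithelium, rose from 3076 and 2999 to 22026 and 21207 CPM (2.83 ± 0.20, adjusted p = 7.5e-08). The complement regulator C4bp rose from 0.575 and 0.604 to 94.9 and 101 CPM. The sodium proton exchanger Slc9a4, a gene of gastric parietal cells, rose from 0 and 0.329 to 114 and 121 CPM, and the potassium channel Kcnj15 from 0 and 0.11 to 47.3 and 46.2 CPM. The phosphatase gene Ppapdc1a, with no count in WT, was at least 58.6-fold higher, and lost its call without WT replicate 2 (adjusted p = 0.0574). In the other direction, Trim30d, with 237 and 357 counts in WT and none in the knockout, was at least 145-fold lower. The adenosine receptor Adora2b, the growth factor Ereg, the protease Prss30, the alcohol dehydrogenase Adh4 and the transporter Slc16a9 were each above 14 CPM in WT and below 0.23 CPM in the knockout, and DESeq2 did not call Prss30 (adjusted p = 0.11). WT and knockout were of different strains, and the part of strain in these values was not tested.

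The adult deletion gave a separate set of libraries, with control mice of the same mixed background as the knockout. In the adult, 1047 of 12444 genes rose (8.41%) and 1497 fell (12%). Over 12408 genes tested in both, 413 rose in both, 33.7% of the rises at E18 and 39.8% of those in the adult. For falls the overlap was 755 genes, 58.6% of those at E18 and 50.7% of those in the adult. Called the opposite way in the adult were 13 of the rises and 30 of the falls. Of 22 hydrolases tested in both, 14 fell in both, against 755 of all 12408 genes. Lct had a log2 difference of −7.49 here and −9.40 in the adult, Enpp7 of −11.13 and −12.02 and Sis of −6.35 and −5.59. Of 21 stomach genes tested in both, 15 rose in both, against 413 of all 12408 genes. Sult1c2 rose by 8.39 and 8.25. Mgam was −3.21 here and −0.89 in the adult, where it was not called, and Alpi was 0.22 here and −4.09 in the adult.

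**Figure D5:**
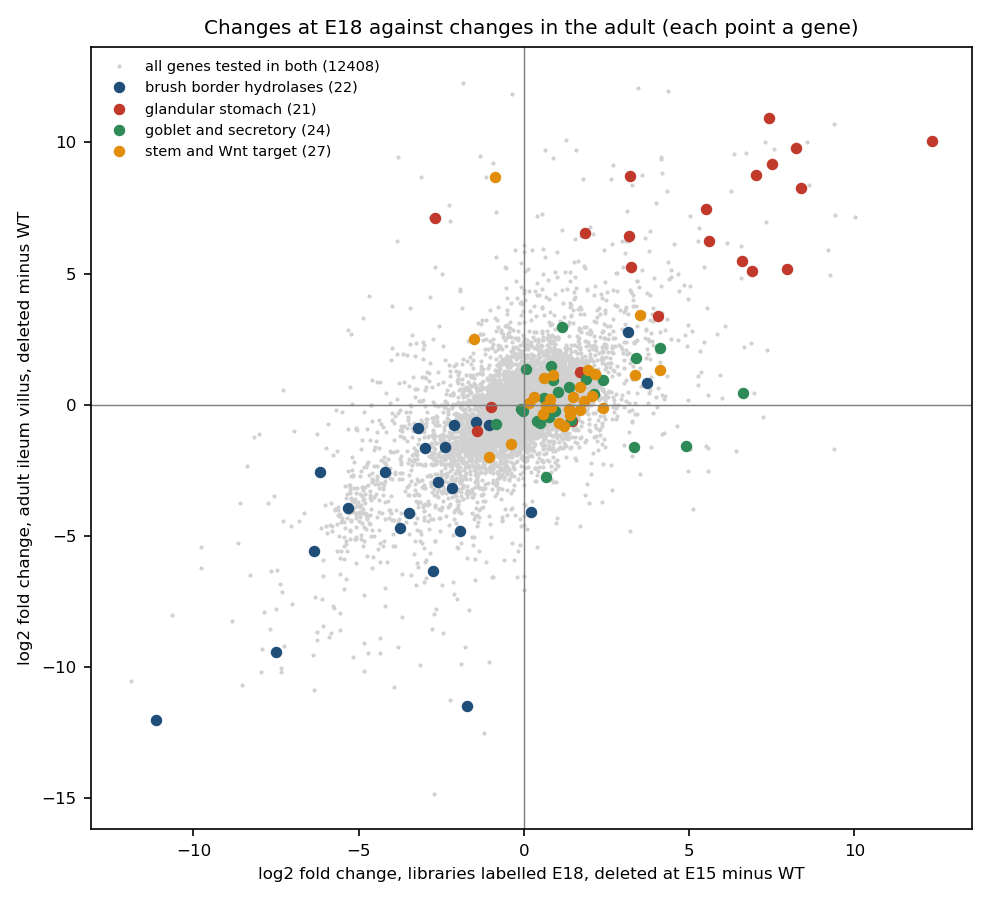
Log2 difference of each gene tested in both, at E18 (horizontal axis) and in the adult ileum (vertical axis); coloured points are members of 4 gene lists and grey points all 12408 genes. Most hydrolases lie low in both and most stomach genes high in both, while most goblet and stem cell genes lie right of 0 with adult values on both sides of 0.

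A test of the difference between the deletions, in a fit over all 31 libraries, called 1151 of 17305 genes (6.65%), 447 more positive here and 704 more negative. Lyz1 had log2 differences of 3.33 here and −1.59 in the adult, and ferroportin, Slc40a1, of 2.67 and −3.23. Ctsl and the immediate early gene Fosb went the other way, −1.70 here against 2.42 and −1.39 against 3.13. The adult libraries are labelled ileum and these small intestine at E18, so labelled region and age differ with the time of deletion. Strain separates knockout from WT here but not in the adult. Sex-linked RNAs differ too: Ddx3y, a gene of the Y chromosome, was at 76.9 to 95.4 CPM here and 0 in the adult. These factors cannot be told apart. Against the knockouts labelled E16 and their shared E16 control, the difference was called for 7078 genes (41.1%) for deletion at E10 and 6536 genes (37.9%) for deletion at E13. The knockout deleted at E13 also differed from its E16 control in the stage markers described above. H19 was at 0.661 to 0.803 CPM in it, 923 to 1041 in the control and 1078 to 1295 in the knockout deleted at E10. Mesenchymal markers summed to 1668 to 1807 CPM in that control. They summed to 243 to 395 with deletion at E10 and 302 to 309 with deletion at E13. The part of such cells in either count was not tested.

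The change between WT intestine labelled E14 and E16 was compared with the knockout, using WT libraries that the E18 comparison does not share. Of 2363 genes that rose in WT intestine from E14 to E16, 612 fell in the knockout (25.9%) and 155 rose (6.56%), with a median log2 difference of −0.58. Of 2052 genes that fell from E14 to E16, 337 rose in the knockout (16.4%) and 170 fell (8.28%), with a median of 0.28. For all genes the shares were 9.7% that fell and 7.79% that rose. The WT libraries labelled E14 and E16 also differed in other cells and handling. Immune cell markers summed to 111 to 114 CPM at E14 and 361 to 375 at E16. Genes induced by dissociation summed to 4165 to 4571 CPM at E14 and 9941 to 9956 at E16. Both sums were also lower in the knockout than in WT labelled E18. Their part in this overlap was not tested.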

How the data were processed

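RNA-seq libraries were single-end 75 bp reads from SMARTer libraries, per the labels' protocols. The authors deposited raw counts per gene symbol in 1 table, and the submitters' processing notes name STAR 2.5.3a, HTSeq, Bowtie2, MACS2 and mm9. The counting strand is not given in the sources used here, so antisense and overlapping genes, like near-identical copies, are uncertain. There were 2 columns of no sample here, which were not used, and 2 blank entries in each adult column, which were left out.

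The 27 embryonic libraries of 13 groups were fitted together with edgeR 4.0.16 in R 4.3.3 (quasi-likelihood test, TMM scaling, filterByExpr with a minimum count of 10), and the 4 adult libraries apart. A gene was called at a Benjamini-Hochberg adjusted p below 0.05 and a log2 difference of at least 1. The SE is the difference divided by the square root of F. The difference from the adult came from 1 fit over 31 libraries. Scripts were tested on simulated data. Named genes were, per list, up to 6 called and 3 uncalled members, the 12 largest changes in each direction with a mean of at least 5 CPM and no overlap, and the 10 called genes with most counts in each direction. Cdx1, Lgr5, Muc2, Sox2, Muc5ac, Slc2a1, Pnliprp2, Cdkn1a, Krt5, Trp63, Col6a3, Lum and Postn were chosen after their values were seen. Members and lists were chosen with earlier results of these data known. Alternatives included DESeq2 1.42.0, RLE scaling, other sets of libraries and leaving out each library. Some members are counted in their lists but not reported here by name.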

Additional observations from a re-analysis of the deposited data

Results flagged for a closer look

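Several effects differed between deletions in a test of the difference itself. The effect of deletion at E15 differed from that at E10 for 7078 genes, from that at E13 for 6536 genes and from that in the adult for 1151 genes. Among named genes, the E15 minus adult difference in log2 was −4.26 for the protease gene Ctsl, −4.66 for the immediate early gene Fosb, 4.78 for lysozyme, Lyz1, and 5.76 for ferroportin, Slc40a1. Each of these 4 genes was called in opposite directions in the 2 comparisons. With each pair of embryonic libraries summed, Fosb and Lyz1 lost their call here, with adjusted p of 0.0637 and 0.0705. Genes induced by dissociation summed to 13870 and 14040 CPM in WT and 8627 and 8398 in the knockout here, and in the adult to 1413 to 1664 in WT and 2297 to 2346 in the knockout. Their part in the Fosb difference was not tested. Ddx3y, a gene of the Y chromosome, was at 76.9 to 95.4 CPM in the 4 libraries compared here. It was at 0 in the adult libraries and in the knockout deleted at E13. Xist, the RNA of the inactive X chromosome, was at 0.155 to 0.229 CPM here and 282 to 507 in the adult. Age, region, sex-linked RNAs, collection, treatment and whether knockout and WT share a strain differ between the deletions. These factors cannot be told apart. The knockout deleted at E13, labelled E16, had H19 at 0.661 to 0.803 CPM and Pigr at 5328 to 5339 CPM. Its WT control labelled E16 had H19 at 923 to 1041 and Pigr at 19.7 to 25.3 CPM. The 6536 genes include this difference in stage markers between knockout and control. Mesenchymal markers summed to 1668 to 1807 CPM in the same control. They summed to 243 to 395 in the knockout deleted at E10 and 302 to 309 in that deleted at E13. Neither the 7078 nor the 6536 genes can therefore be read as a difference in the effect of deletion alone.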

How the results depend on the processing

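The count of 3015 genes called became 5239 with no fold minimum and 1762 with each pair summed to 1 library, the latter chosen after seeing the data. With no fold minimum, 4298 genes were called in the adult against 2544, and 7029 between E14 and E16 against 4415. Leaving out 1 library gave 2183 to 2373 calls, 1074 to 1186 that rose and 1071 to 1299 that fell. The difference from deletion at E10 then ranged from 6399 to 6524 genes, from E13 from 5741 to 5931 and from the adult from 773 to 784. Only the 4 libraries, no filter, only small intestine, thinning and DESeq2 gave 3951, 2977, 2864, 2892 and 3055 calls, within 1.5 times the main count. RLE scaling gave 1074 that rose and 1892 that fell, 36.2% that rose against 44.5%. The balance turned towards genes that rose with no fold minimum (2850 rose, 2389 fell), with each pair summed (946 and 816), without knockout replicate 1 (1186 and 1112) and without knockout replicate 2 (1112 and 1071). No named gene that was called changed sign, while among uncalled genes Cel, Tie1, Krt10, Slc16a1, Tagln and Eif2s3y did. The cause of these changes was not tested.

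Same-numbered libraries had a correlation of deviations of 0.00689 over genes, so no shared shift by replicate number was seen. From 2 libraries a group, this value cannot show whether the numbers pair the samples. With the replicate number as a block, 2905 genes were called, 1317 that rose and 1588 that fell.

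Of 151 named genes called, 25 lost the call without at least 1 library, 33 with each pair summed and 17 under DESeq2. With 2 libraries a group of nearly equal content, the spread between animals is not known, and genes of few counts are the least precise.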

Other observations

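Further gene groups were chosen after their values were seen, and are described without a test of the group. Over all genes tested, 7.79% rose and 9.7% fell in the knockout. In the adult 8.41% rose and 12% fell. All 19 genes of cytotoxic lymphocytes fell in the knockout, with a median log2 difference of −5.50, and their summed level went from 3417 and 3467 to 82.2 and 87.2 CPM. In the adult, all 16 tested fell. Of 18 antigen presentation genes 13 fell, with a median of −1.86 and sums of 9437 and 9598 against 2887 and 2799 CPM. In the adult 14 fell.

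Of 16 Paneth cell genes 7 rose, with a median of 2.77 and sums of 339 and 329 against 2734 and 2719 CPM. In the adult 1 rose and 3 fell, with a median of −1.05. Of 20 sterol synthesis genes 7 rose and 0 fell, with a median of 0.83 and sums of 1876 and 1911 against 3738 and 3769 CPM. Ribosomal protein genes had a median of 0.88, and 8 of 38 rose, with sums of 18380 and 18280 against 35000 and 33450 CPM. Rplp0 and Rps2 lost their calls under RLE scaling.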
